A study of Mus musculus with 2 samples.

Results

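The genes described here are 7 cell adhesion and gap junction genes, chosen by symbol from the 27998 genes of the deposited table: Gjd2, Cdh1, Cdh2, Epcam, Ncam1, Cadm1 and Cldn4. Each symbol matched 1 row. They were followed in pancreatic islet cells of wild type C57BL/6J mice, an inbred strain, by droplet single-cell RNA sequencing with a 3' kit that counts unique molecular identifiers (UMIs). The chow library held cells of 4 mice given regular chow and the HFD library cells of 5 mice given food with 60% fat (HFD), in both cases for 6 weeks after weaning. Islets were hand-picked, cultured overnight and dispersed with trypsin, an enzyme that also cleaves surface proteins. Each diet has 1 library of pooled mice, and values are given for chow first and HFD second. The cells of single mice cannot be told apart, so no difference between the diets could be tested, and the intervals below cover counting error only.

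Islet cells hold to one another through several families of surface proteins. Gjd2 encodes the connexin that forms gap junctions between beta cells, through which electrical and calcium activity spreads across the islet. The classical cadherins encoded by Cdh1 (E-cadherin) and Cdh2 (N-cadherin) bind their like on the neighbouring cell and are anchored inside the cell by catenins. Ncam1 and Cadm1 encode adhesion molecules of the immunoglobulin superfamily, and Ncam1 is known for its part in the arrangement of endocrine cells within the rodent islet. Epcam encodes an epithelial adhesion molecule that associates with claudins, and Cldn4 encodes a claudin of tight junctions.

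The chow library held 6509 barcodes and 89292222 UMIs and the HFD library 4539 barcodes and 68544729 UMIs, with medians of 12414 and 13911 UMIs per barcode. After removal of barcodes with under 500 genes or over 10% mitochondrial UMIs, 6387 and 4394 cells were left. Cells were beta where insulin RNA (Ins1 and Ins2) made up at least 20% of UMIs, otherwise alpha where Gcg reached 5%, otherwise delta where Sst reached 1%, otherwise pancreatic polypeptide (PP) cells where Ppy reached 15%. This gave 4574 chow and 3100 HFD beta cells, 779 and 402 alpha cells, 468 and 388 delta cells, and 203 and 160 PP cells. Summed markers other than hormones followed the labels for beta, alpha and delta cells, although the delta markers Lepr and Cckbr were at 0 in delta cells of both libraries. They did not single out the PP cells, whose summed PP markers reached 376 and 428 CPM (counts of a gene per 1000000 UMIs of the cells summed) against 688 and 813 CPM in delta cells, so the PP cells are those defined by their Ppy share. Cells that met the thresholds of more than 1 hormone numbered 146 and 113 and were kept, as the rule is written. The libraries shared 45 barcodes.

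RefSeq promoter windows (GRCm38.p6) matched 3 of the 7 genes in a search that left out a chromosome. The 250 bases before the annotated start are shown for these 3 genes, which had unlike patterns over the 4 hormone types. Of these types, Gjd2 was highest in beta cells, Epcam was highest in delta cells and Cldn4 had its lowest CPM in beta cells. Capitals mark the letters of the GC box GGGCGG (read as CCGCCC where it lies on the opposite strand) and of the AP-1 element TGACTCA, searched on both strands, which do not overlap in these windows. All sequences run from 5′ to 3′ on the strand of the gene.
Gjd2, chr2:114013620-114013869, minus strand: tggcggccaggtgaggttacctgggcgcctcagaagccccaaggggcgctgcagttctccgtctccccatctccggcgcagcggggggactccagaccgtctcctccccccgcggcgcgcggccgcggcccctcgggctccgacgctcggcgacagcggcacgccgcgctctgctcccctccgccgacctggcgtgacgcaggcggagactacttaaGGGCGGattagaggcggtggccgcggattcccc
Epcam, chr17:87635729-87635978, plus strand: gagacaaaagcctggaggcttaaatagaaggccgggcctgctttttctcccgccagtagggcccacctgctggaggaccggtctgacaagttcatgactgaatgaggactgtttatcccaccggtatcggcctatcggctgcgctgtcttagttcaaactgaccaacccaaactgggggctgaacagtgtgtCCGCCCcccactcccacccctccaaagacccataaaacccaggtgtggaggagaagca
Cldn4, chr5:134946935-134947184, minus strand: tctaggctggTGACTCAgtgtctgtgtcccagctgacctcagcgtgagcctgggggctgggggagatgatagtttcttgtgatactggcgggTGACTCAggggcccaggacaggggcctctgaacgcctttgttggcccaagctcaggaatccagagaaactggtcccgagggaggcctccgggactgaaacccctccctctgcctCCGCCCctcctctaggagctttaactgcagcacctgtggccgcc
The Gjd2 window had a GC content of 74% and 33 CpG dinucleotides, the Epcam window 56.4% and 8, and the Cldn4 window 62% and 7, beside a median of 52.4% and 6 over 32851 windows of the same length. GGGCGG occurred once in each of the 3 windows and in 32.7% of all windows. TGACTCA occurred 2 times in the Cldn4 window, not in the windows of Gjd2 and Epcam, and in 4.46% of all windows. The TATA box letters TATAAA, present in 12.4% of all windows, were in none of the 3. These matches describe letters only, since no binding was measured.

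Among the 4 hormone types, to which "highest" and "lowest" refer below, Gjd2 was highest in beta cells in both libraries. Its level there was 48.7 CPM with chow (exact Poisson 95% limits 47.1 and 50.3) and 70.7 CPM with HFD (68.5 and 73.0). Delta cells had 26.9 and 27.6 CPM, alpha cells 11.4 and 11.7 CPM, and PP cells 9.95 and 18.1 CPM. The order was beta, delta, alpha and PP in the chow library and beta, delta, PP and alpha in the HFD library, and the intervals of alpha and PP cells overlapped in both, as did those of delta and PP cells with HFD. Endothelial-like cells, which are not endocrine and were used to gauge free RNA, had 3.18 and 2.94 CPM from 4 and 3 counts. Free RNA of beta cells, scaled by the insulin RNA found in alpha cells, would give 2.38 and 2.58 CPM of Gjd2 there, or 20.9% and 22.1% of the alpha cell level.

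Because insulin RNA takes up much of a beta cell's UMIs, levels in different types do not share one denominator. RNA other than hormones made up 39.5% and 40.2% of UMIs in beta cells, 71.0% and 69.2% in alpha cells, 66.9% and 70.2% in delta cells, and 42.7% and 45.7% in PP cells. Over UMIs other than those of hormones, Gjd2 in alpha cells was 0.130 and 0.0958 times its level in beta cells, and in delta cells 0.326 and 0.223 times. Of the 7 genes, 1 (Gjd2) had its highest CPM in beta cells in both libraries, and 2 (Gjd2 and Cdh1) did over these other UMIs and as UMIs per cell. Ratios of one type to another below are given relative to the median ratio over all genes with at least 50 counts, and a gene is counted as different when this relative ratio passes 1.5-fold in both libraries.

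**Figure D1:**
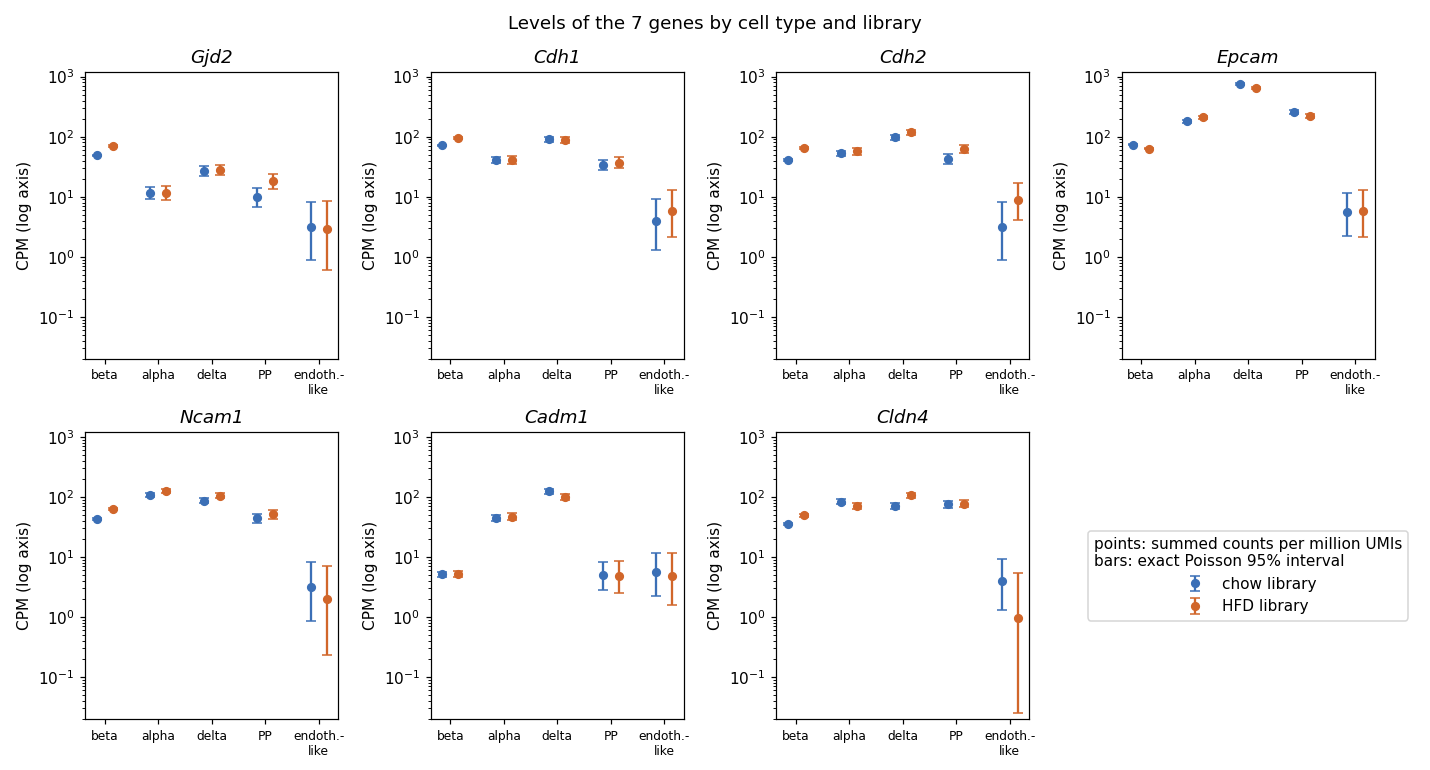
Levels of the 7 genes in CPM on a log axis, by cell type, in the chow (blue) and HFD (orange) libraries. Bars are exact Poisson 95% intervals. Of the hormone types, Gjd2 was highest in beta cells and Epcam and Cadm1 in delta cells. The endothelial-like cells were at 0.981 to 8.83 CPM, and other cells without a hormone type are not shown.

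The cadherins had flatter profiles. Cdh1, which encodes E-cadherin, was at 71.6 and 94.5 CPM in beta cells and 90.3 and 88.5 CPM in delta cells. Alpha cells had 41.1 and 40.6 CPM of Cdh1 and PP cells 34.2 and 37.0 CPM. In CPM, beta and delta cells thus formed an upper pair and alpha and PP cells a lower pair. Intervals overlapped in the lower pair in both libraries and in the upper pair in the HFD library. Over UMIs other than hormones, delta cells had 0.743 and 0.536 times the Cdh1 level of beta cells, and these intervals did not overlap. Cdh2, which encodes N-cadherin, was highest among the hormone types in delta cells, at 98.3 and 118 CPM, against 41.4 and 64.9 CPM in beta cells. In alpha cells Cdh2 reached 52.5 and 56.6 CPM, and in PP cells 42.5 and 62.0 CPM. The lead of delta over beta cells for Cdh2 was 2.38-fold and 1.82-fold in CPM but 1.40-fold and 1.04-fold over UMIs other than hormones. Among cells without a hormone, Schwann-like cells (17 and 11 cells) carried Cdh2 at 274 and 178 CPM, and endothelial-like cells at 3.18 and 8.83 CPM.

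Of the immunoglobulin-type molecules, Ncam1 was highest among the hormone types in alpha cells, at 108 and 126 CPM. Delta cells had 86.8 and 105 CPM of Ncam1, beta cells 42.6 and 62.3 CPM, and PP cells 44.5 and 51.9 CPM. Alpha cells thus exceeded beta cells 2.54-fold and 2.03-fold in CPM and 1.41-fold and 1.18-fold over UMIs other than hormones. Cadm1 had the widest range of the 7 genes over the hormone types. Delta cells held 124 and 99.8 CPM of Cadm1 and alpha cells 43.9 and 46.7 CPM, whereas beta cells held 5.16 and 5.15 CPM and PP cells 4.98 and 4.83 CPM. The PP levels, and those of beta cells taken as a whole, were near the level of endothelial-like cells (5.57 and 4.90 CPM), so no fold over beta cells is given. Beta cells with 20% to 40% insulin UMIs held 13.8 and 19.2 CPM of Cadm1 and those with Ppy at 1% of UMIs or more held 21.0 and 17.7 CPM. The latter were at 15.9 and 6.36 CPM without cells meeting the thresholds of more than 1 hormone. Macrophage-like cells (54 and 71 cells) also carried Cadm1, at 210.2 and 243 CPM.

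Of the hormone types, delta cells had the highest Epcam level, and most of them carried it even at low depth. Its level was 757 CPM (730.2 to 784) and 653 CPM (628 to 678) in delta cells, or 6.61 and 6.82 UMIs per cell. PP cells had 261 and 223 CPM, alpha cells 181 and 209.8 CPM, and beta cells 74.0 and 63.4 CPM. All 4 hormone types differed from their neighbours in this order beyond counting error, except PP and alpha cells of the HFD library. Endothelial-like cells had 5.57 and 5.88 CPM, and ductal-like cells 834 and 1166 CPM. The ductal-like cells also held Chga, a granule gene of endocrine cells, at 5206.5 and 3729 CPM, against 2703 and 2543 CPM in beta cells. This group is thus not purely ductal. Per cell, with each cell thinned to 3800 UMIs so that total depth was equal, the median delta cell had 3 Epcam UMIs with chow and 2 with HFD, the median beta cell 0. At this depth 0.547% of chow beta cells reached 3 UMIs and 3.06% of HFD beta cells reached 2. Thinning does not equalize UMIs other than hormones, of which beta cells keep fewer. Over those UMIs delta cells had 6.02 and 5.90 times the Epcam level of beta cells, against 10.2 and 10.3 times in CPM.

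Without the cells that met more than 1 hormone threshold, Epcam was 161 and 187 CPM in alpha cells and 70.4 and 58.5 CPM in beta cells, and 778 and 676 CPM in delta cells. Epcam was also higher in beta cells with Ppy at 1% of UMIs or more: 203 CPM in 138 chow cells against 69.7 CPM in the other 4436, and 146 CPM in 128 HFD cells against 59.2 CPM in the other 2972. With cells of more than 1 hormone left out, the values were 155 against 68.7 CPM and 99.7 against 57.3 CPM. The rise was not particular to Epcam, since every other gene described here was also higher in these beta cells in both libraries. Without cells of more than 1 hormone, Gjd2 was at 69.9 against 48.4 CPM with chow and 119 against 69.3 CPM with HFD. Cldn4 was then at 62.0 against 34.7 CPM with chow and 91.9 against 47.4 CPM with HFD. Epcam in delta cells did not part this way between the 2 ranges of Ppy, with 755 and 642 CPM at 1% or more against 765 and 698 CPM below. In alpha cells Epcam was at 211 against 170 CPM and 241 against 197 CPM. Without cells of more than 1 hormone it was lower at 1% or more, with 145 against 165 CPM and 160 against 196 CPM. The part of doublets in the beta cell difference was not tested beyond this removal.

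**Figure D2:**
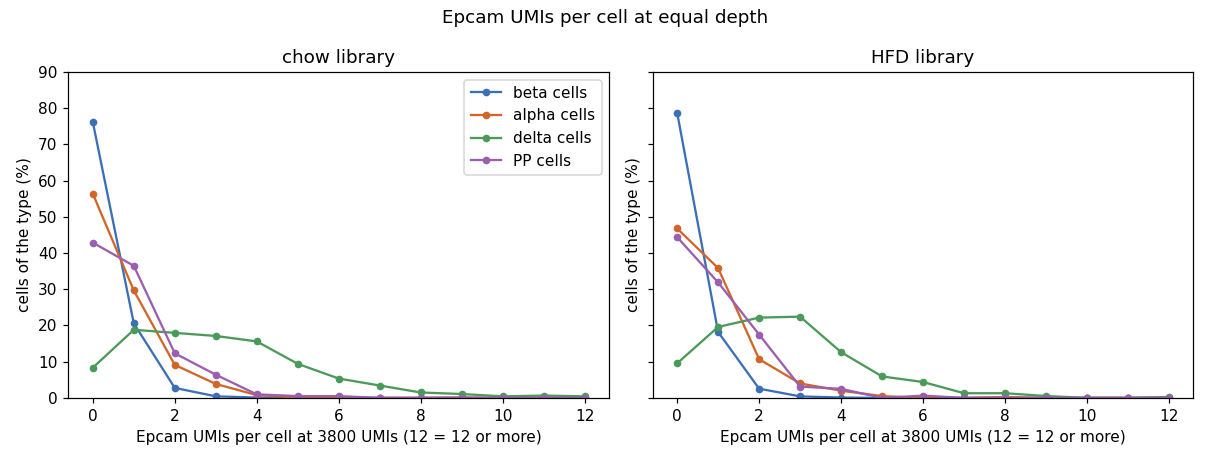
Epcam UMIs per cell after thinning to 3800 UMIs, as the percentage of cells of each hormone type, in the chow (left) and HFD (right) libraries. Most beta cells have 0 UMIs, whereas the delta cell curve spreads over several UMIs around its medians of 3 and 2.

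Of the hormone types, beta cells had the lowest CPM of Cldn4. It stood at 83.9 and 71.6 CPM in alpha cells, 75.7 and 77.3 CPM in PP cells, 71.4 and 107 CPM in delta cells, and 35.7 and 49.1 CPM in beta cells. The order of the other 3 types changed between the libraries. The intervals of alpha and PP cells overlapped in both libraries. Over UMIs other than hormones, alpha cells had 1.31 and 0.847 times the Cldn4 level of beta cells, so this difference turned with the denominator in the HFD library, where alpha cells were then lowest. Among cells without a hormone type, the ductal-like group (35 and 33 cells), which also held Chga, carried Cldn4 at 422 and 629 CPM. Endothelial-like cells carried it at 3.98 and 0.981 CPM. Among ductal-like cells with at least 3 ductal markers, a subset of 10 and 17 cells chosen after seeing the data, Cldn4 was at 1106 and 1048 CPM and Epcam at 1722 and 1943 CPM.

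Relative to the median of all genes, alpha cells differed from beta cells for 5 of the 7 genes, in the same direction in both libraries, where 26.3% of all genes tested did so. Epcam, Ncam1 and Cadm1 were higher in alpha cells and Gjd2 and Cdh1 lower. Delta cells differed for 3 genes, beside 30.1% of all genes, with Epcam and Cadm1 higher and Gjd2 lower. PP cells differed for 4, beside 29.8% of all genes, with Epcam and Cldn4 higher and Gjd2 and Cdh1 lower. Over UMIs other than hormones, the count in alpha cells was 3 (Gjd2, Cdh1, Cadm1), beside 31.4% of all genes, since Epcam (1.36-fold and 1.92-fold) and Ncam1 (1.41-fold and 1.18-fold) did not pass in both libraries. On that scale delta cells differed for 3 genes, beside 31.3%, and PP cells for 3, beside 31.0%, without Cldn4 (1.96-fold and 1.38-fold). Gjd2 was lower past 1.5-fold in each of the other 3 hormone types on both scales, with relative log2 ratios of −2.66 and −3.00 in alpha, −1.57 and −2.02 in delta and −2.26 and −1.95 in PP cells. Epcam was higher in each relative to the median, with relative log2 ratios of 0.71 and 1.31 in alpha, 2.63 and 2.69 in delta and 1.82 and 1.81 in PP cells. Cells of 1 library are not replicates, so these counts describe 2 libraries. The 7 genes were also chosen with earlier results of these data known, so their counts beside the shares of all genes are no test.

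The share of cells with a UMI followed the same lines at equal total depth. At that depth beta cells keep fewer UMIs other than hormones than the other hormone types. After thinning to 3800 UMIs, Gjd2 was seen in 17.5% of beta cells with chow (16.4 to 18.6, Clopper-Pearson 95% limits) and 25.4% with HFD (23.9 to 27.0), against 10.7% and 10.3% of delta, 4.24% and 4.73% of alpha and 3.45% and 8.13% of PP cells. Before thinning, 47.6% and 60.7% of beta cells had a Gjd2 UMI, at median depths of 14809.5 and 16946.5 UMIs. In endothelial-like cells, with median depths of 6760 and 6508.5 UMIs, the share was 1.84% and 2.46% before and 0.613% and 0.820% after thinning. Epcam was seen in 91.7% and 90.5% of delta cells against 23.9% and 21.3% of beta cells after thinning. Cadm1 was seen in 37.6% and 29.1% of delta cells against 1.88% and 2.23% of beta cells, the latter at the level of endothelial-like cells (3.07% and 1.64%).

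**Figure D3:**
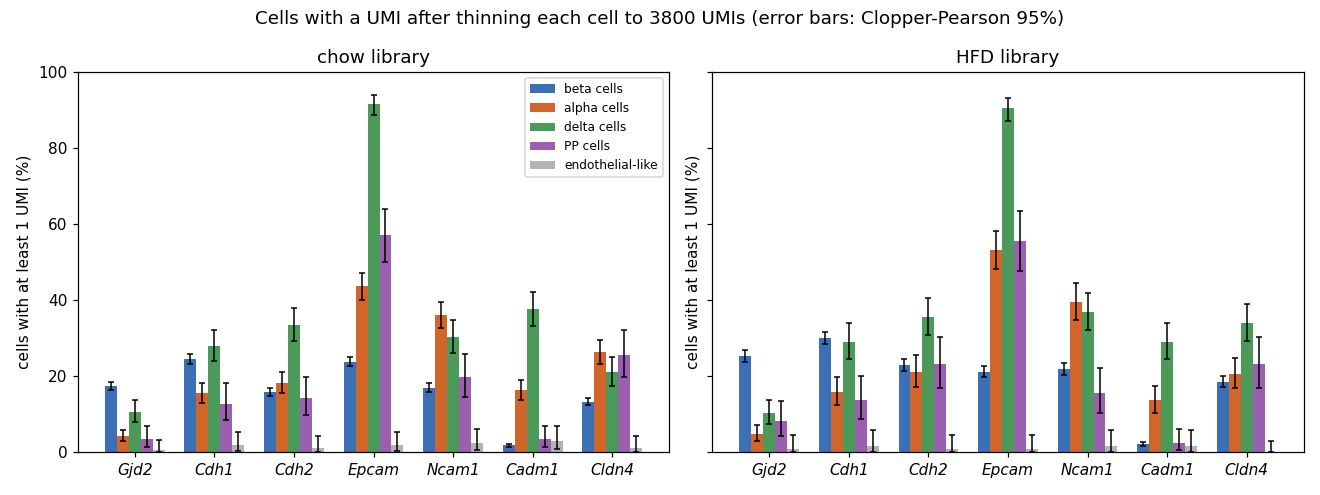
Percentage of cells with at least 1 UMI of each gene after thinning each cell to 3800 UMIs, by cell type, in the chow (left) and HFD (right) libraries, with Clopper-Pearson 95% intervals. Epcam was seen in 91.7% and 90.5% of delta cells and Gjd2 in more beta cells than cells of any other type shown.

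Between the diets, 5 of the 7 genes were higher and 2 were lower in beta cells of the HFD library, relative to the median of all genes. The 2 lower genes were Epcam and Cadm1, and the interval of Cadm1 held 0. The whole table moved by 0.20 on the log2 scale in CPM in beta cells, and this shift was subtracted. No gene of the 7 passed 1.5-fold in beta, alpha or delta cells, and 1 of 6 with enough counts did in PP cells, where 13.2%, 9.43%, 7.23% and 13.2% of all genes tested passed in beta, alpha, delta and PP cells. The share of these genes past the fold was therefore not above that of all genes in beta, alpha or delta cells. The median relative log2 ratio of the genes was 0.26 in beta, 0.10 in alpha, −0.05 in delta and 0.08 in PP cells, with the median of all genes at 0 by construction.

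In beta cells Gjd2 was at 48.7 and 70.7 CPM, a relative log2 ratio of 0.34 (95% counting interval 0.27 to 0.40). Of all genes tested in beta cells, 13.1% had a higher ratio. In alpha and delta cells the relative log2 ratio of Gjd2 was 0.04 and −0.05, with intervals that held 0. In PP cells Gjd2 passed 1.5-fold at 0.77 (0.08 to 1.49), from 30 and 45 counts. There, 5 cells held 40% and 35.6% of these counts. The ratio was 1.35 without the 5% of cells with the most UMIs and 1.26 as the mean of each cell's CPM, and under stricter hormone thresholds or after thinning the gene had too few counts to be compared.

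The cadherins were higher in HFD beta cells by less than 1.5-fold. Cdh1 was at 71.6 and 94.5 CPM, a relative log2 ratio of 0.20 (0.14 to 0.26). Cdh2 was at 41.4 and 64.9 CPM, a ratio of 0.45 (0.38 to 0.52), which 7.69% of all genes exceeded, and over all beta cells it passed 1.5-fold only where the shift of the whole table was not subtracted, at 0.65. In PP cells the relative log2 ratio of Cdh2 was 0.46 (0.11 to 0.81). Cdh1 and Cdh2 in alpha and delta cells had intervals that held 0. Of the catenins that anchor them, Ctnnb1 was at 97.9 and 119 CPM, Ctnna1 at 30.8 and 35.6 CPM and Ctnnd1 at 26.7 and 31.7 CPM in beta cells, with relative log2 ratios of 0.09, 0.00 and 0.04.

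Ncam1 was at 42.6 and 62.3 CPM in beta cells, a relative log2 ratio of 0.35 (0.27 to 0.42), and at 108 and 126 CPM in alpha cells, a ratio of 0.23 (0.07 to 0.39). In delta and PP cells its intervals held 0. Cadm1 was at 124 and 99.8 CPM in delta cells, a relative log2 ratio of −0.39 (−0.58 to −0.20), where 8.32% of all genes had a lower one. In beta cells Cadm1 was at 5.16 and 5.15 CPM, a ratio of −0.20 with an interval that held 0 (−0.44 to 0.03). After thinning each cell to 3800 UMIs this ratio was 0.09. In alpha cells the ratio of Cadm1 was 0.10 with an interval that held 0, and in PP cells its 15 and 12 counts were under the minimum.

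Epcam was lower in HFD beta, delta and PP cells and higher in HFD alpha cells. In beta cells it was at 74.0 and 63.4 CPM, a relative log2 ratio of −0.43 (−0.49 to −0.36), and 85.0% of all genes had a higher ratio. In delta cells it was at 757 and 653 CPM, a ratio of −0.30 (−0.37 to −0.22). In PP cells the ratio was −0.32 (−0.47 to −0.16), from 261 and 223 CPM, and −0.01 after thinning each cell to the same depth. In alpha cells it was at 181 and 209.8 CPM, a ratio of 0.22 (0.10 to 0.34). The alpha cells with a UMI at equal depth were 43.6% and 53.2%. Between the cell types the direction thus differed by sign in these 2 libraries, which could not be tested.

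Cldn4 was at 71.4 and 107 CPM in delta cells, a relative log2 ratio of 0.51 (0.29 to 0.73), and 6.73% of all genes exceeded it. It passed 1.5-fold in delta cells after thinning, at 0.82, and without subtraction of the shift. In beta cells Cldn4 was at 35.7 and 49.1 CPM, a ratio of 0.26 (0.18 to 0.34). Alpha cells had the opposite sign, with 83.9 and 71.6 CPM, a ratio of −0.22 (−0.43 to −0.02). In PP cells Cldn4 was at 75.7 and 77.3 CPM.

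**Figure D4:**
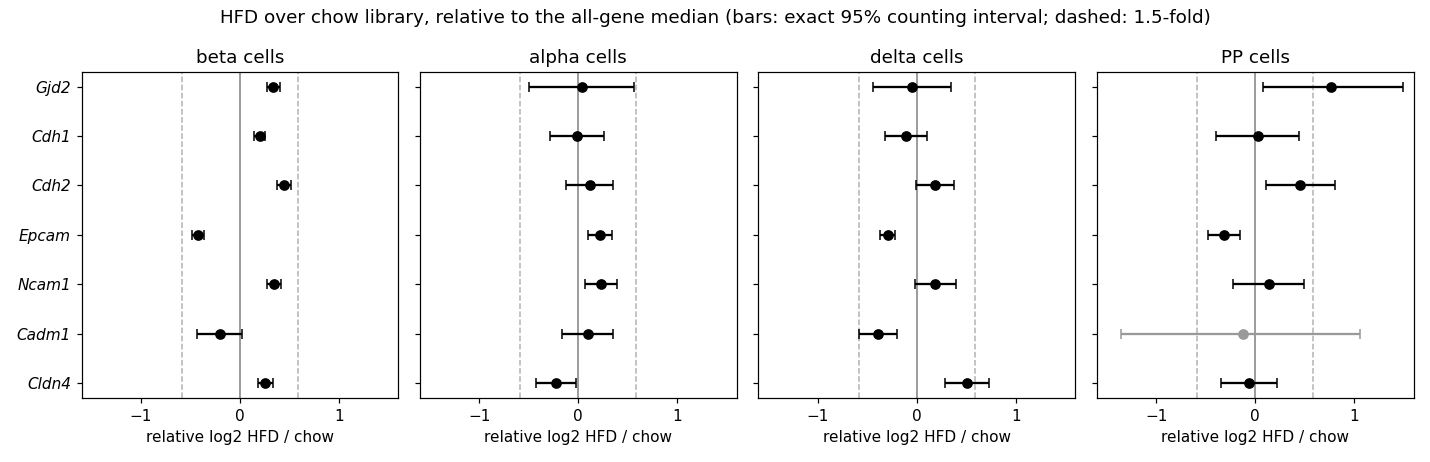
Relative log2 ratio of the HFD to the chow library for each gene in the 4 hormone types, with 95% counting intervals. Dashed lines mark 1.5-fold and the grey point had under 50 counts. Epcam lies below 0 in beta, delta and PP cells and above 0 in alpha cells, and Gjd2 in PP cells is the point past 1.5-fold.

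The beta cells were then split by their insulin share, since both the levels and the share of other RNA depend on it. Levels in CPM went down between the range of 20% to 40% insulin UMIs and that of 60% or more. For Epcam they went from 132 to 58.0 CPM with chow and from 125 to 45.9 CPM with HFD. Gjd2 was likewise at 66.1 and 34.1 CPM in these ranges with chow and at 96.8 and 48.2 CPM with HFD. Insulin UMIs are part of the CPM denominator, so a fall of other genes is in part fixed by the split itself. Levels over UMIs other than hormones were not computed for these ranges. Within each of the 4 ranges the HFD library was lower for Epcam, with relative log2 ratios from −0.54 to −0.19, and higher for Gjd2, from 0.32 to 0.43. Cdh2 was higher in all 4 ranges, from 0.34 to 0.59, as were Ncam1, from 0.29 to 0.45, Cldn4, from 0.15 to 0.57, and Cdh1, from 0.12 to 0.29, where the interval of Cdh1 held 0 in the range of 20% to 40%. Cadm1 was not the same in sign over the ranges.

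Other adhesion and junction genes were followed in 8 lists of 193 symbols, 187 of which were in the table. In beta cells 100 had enough counts, and 4 were higher and 4 lower past 1.5-fold in the HFD library, beside 4.28% and 8.94% of all genes tested. The median relative log2 ratio of the 100 genes was 0.05. In alpha cells 1 of 64 was higher and 2 were lower, beside 4.52% and 4.91% of all genes. In delta cells 2 of 75 were higher and 2 lower, beside 4.80% and 2.43%, and in PP cells 2 of 34 and 0, beside 8.18% and 4.97%. These shares were near or below those of all genes, so the counts are no result about the lists.

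In the tight junction list 2 of 22 genes were higher and 2 lower past 1.5-fold in beta cells, beside 4.28% and 8.94% of all genes. Cldn7, a claudin known to bind the protein of Epcam, was at 68.2 and 35.5 CPM in beta cells, a relative log2 ratio of −1.14 (−1.22 to −1.07). Cldn3, a further claudin of epithelia, was at 29.1 and 20.1 CPM, a ratio of −0.73 (−0.84 to −0.63). In delta cells Cldn7 was at 295 and 229 CPM and Cldn3 at 151 and 129.9 CPM, with ratios of −0.45 and −0.30. In alpha cells the ratios were −0.21 and −0.07, and in PP cells −0.25 and −0.13. In beta cells Cldn7 and Cldn3 were thus lower where Cldn4 was higher, in the same 2 libraries. Tjp1, a scaffold gene of tight junctions, was at 19.3 and 26.4 CPM in beta cells, a ratio of 0.25 (0.14 to 0.36). The other 2 tight junction genes past 1.5-fold in beta cells were Pard6b, a polarity gene, at 0.65 from 115 and 153 counts, and Cldn2 at 0.70 from 23 and 32 counts, with an interval that held 0.

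In the immunoglobulin-type list, 23 genes were tested in beta cells, and 1 was higher and 2 were lower past 1.5-fold, beside 4.28% and 8.94% of all genes, so this share was near that of all genes. Negr1, a neuronal adhesion molecule, was at 13.4 and 23.2 CPM, a relative log2 ratio of 0.59 (0.46 to 0.71). Nrcam, of the L1 family, was at 3.15 and 2.20 CPM, a ratio of −0.72 (−1.06 to −0.39), and Pvr, the poliovirus receptor homologue, had 81 and 44 counts, a ratio of −0.64 (−1.21 to −0.10). In the list of ephrins and their receptors 1 of 8 genes passed, beside 13.2% of all genes in either direction: Ephb2, with 40 and 67 counts, at 0.97 (0.39 to 1.58). No gene of the lists of cadherins (13 tested), catenins (15), neurexins and neuroligins (7), integrins (9) and gap junction channels (3) passed in beta cells, beside the same 13.2%. Of the connexins other than Gjd2, Gja1 gave 29 and 17 counts and Gjc1 gave 5 and 4 counts over all beta cells, so neither could be compared.

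**Figure D5:**
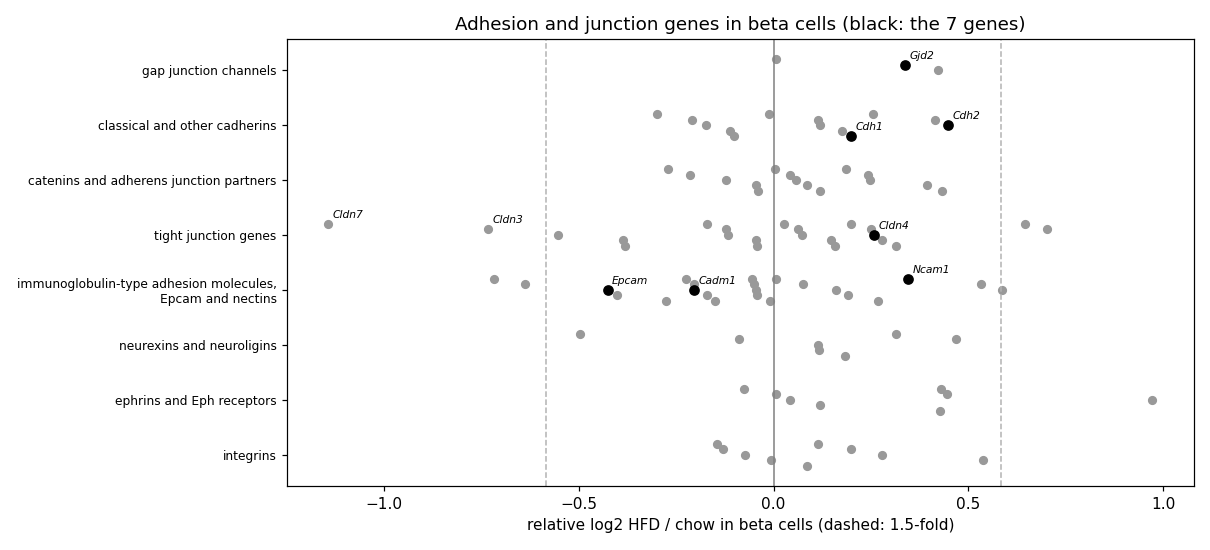
Relative log2 ratio of the HFD to the chow library in beta cells for the genes of the 8 lists with at least 50 counts, 1 row per list, with the 7 genes in black and the rest in grey. Dashed lines mark 1.5-fold. Cldn7 and Cldn3 lie left of the lower line, whereas the 7 genes lie between the lines.

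Genes with a like profile were ranked by Pearson's r of log2(CPM + 1) over the 8 sums of 4 hormone types in 2 libraries, among 7886 genes. The 8 points share libraries and hormone content, so r is a description. Gjd2 was most like Pclo (r = 0.98), which encodes a presynaptic scaffold protein, then Gdap2 and Rab3d. Cdh1 was most like Dsp (0.99), which encodes the desmosomal protein desmoplakin, then Clstn1 and Cd44. Cdh2 was most like Dnm3 (0.98), Ric8b and Htatip2, and Ncam1 most like Krit1 (0.99), Mapk3 and Srrm3. Epcam was most like Hat1 (1.00), Rad1 and Rgs2, Cadm1 most like Wwox (0.99), Hirip3 and Fdft1, and Cldn4 most like Rab20 (0.97), Zfp512 and Zfp36. Among the 7 genes themselves, r was highest for Ncam1 with Cadm1 (0.86) and Gjd2 with Cdh1 (0.84) and lowest for Gjd2 with Cldn4 (−0.63).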

How the data were processed

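The authors deposited raw UMI counts of every gene in every barcode for 1 chow and 1 HFD library, made with 10x 3' v2 chemistry per the labels' protocols. The submitters' processing notes name Cell Ranger 2.1.0. The build, the annotation and the rule for keeping barcodes were not given in the sources used here. Labels state doublets under 5%; no doublet caller was run, and cells meeting more than 1 hormone threshold were kept and, as an alternative, removed. From the counts, barcodes with at least 500 genes and at most 10% mitochondrial UMIs were kept, typed by hormone share and summed per type and library. Levels are counts per 1000000 UMIs (CPM) with exact Poisson 95% intervals. Diet ratios are log2 ratios of CPM with 0.5 counts added, minus the median over genes with at least 50 summed counts, with exact conditional binomial intervals. With 1 library per diet there is no test, and genes are counted past 1.5-fold. UMIs are not replicates, so intervals and limits cover counting error only. Cells without a hormone type were classed by fixed markers where they had at least 5 marker UMIs and over 2 times those of the next class. The ratio step was tested on simulated data. Alternatives used edgeR 4.0.16 (TMM factors) and DESeq2 1.42.0 (median-of-ratios factors) for scaling alone; other computations used numpy 2.4.6 and scipy 1.17.1. The 7 genes, the lists and the markers were chosen with earlier results of these data known. Named beyond the 7 genes were, per list, up to 3 genes with the largest ratio past 1.5-fold in beta cells and at least 100 summed counts, a set of catenin, tight junction and connexin partners, and for each gene the 3 most alike in profile; Cldn2 was named after its value was seen. The splits by Ppy share and insulin share, the ductal-like cells with 3 markers and the folds on other denominators were added after seeing the data.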

Additional observations from a re-analysis of the deposited data

Results flagged for a closer look

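The HFD to chow ratio of Epcam had opposite signs in alpha cells and in beta, delta and PP cells. The relative log2 ratio in alpha cells (0.22) exceeded that in beta cells (−0.43) by 0.65, that in delta cells (−0.30) by 0.52 and that in PP cells (−0.32) by 0.54. For Cldn4 the ratio in alpha cells (−0.22) was below that in beta cells (0.26) by 0.48 and below that in delta cells (0.51) by 0.73. In each pair the 95% counting intervals lay on opposite sides of 0. The differences were not tested, because each diet has 1 library.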

How the results depend on the processing

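No paired analysis was possible because each diet has 1 library. Of 301 alternative values for single genes and types, 285 stayed within the counting interval and 16 did not. Signs changed under at least 1 alternative for 8 of 27 genes by type, each with an interval that held 0. Without subtraction of the all-gene shift, 1 gene passed 1.5-fold in beta cells (Cdh2) and 1 in delta cells (Cldn4). Cldn4 was also the 1 gene past it in delta cells after thinning to 3800 UMIs and with a minimum of 500 counts. In PP cells 0 genes passed under stricter hormone thresholds or with a minimum of 500 counts, since Gjd2 then had too few counts, and after thinning the 1 gene was Cdh2. Under the other alternatives run, the counts of genes past 1.5-fold between the diets were those reported. Over UMIs other than hormones and as UMIs per cell, 2 genes were highest in beta cells (Gjd2, Cdh1), and alpha cells differed from beta cells for 3 genes in place of 5. In CPM without subtraction, with or without cells of more than 1 hormone, delta cells differed for 6 genes in place of 3. The median log2 ratio of delta to beta cells over all genes was itself 0.72 and 0.67, past the 1.5-fold line of 0.58. This count is therefore no result about these genes. These alternatives for the type counts were chosen after seeing the data. Depth limits mainly Gjd2 and Cadm1 in PP cells, where 3 counts correspond to 0.995 and 1.21 CPM, and mice pooled in 1 library leave the spread between animals unknown.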
